A study of Mus musculus with 12 samples.

Results

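The Zfp genes are mouse genes named for encoding zinc finger proteins. Of them, 261 were measured among 11581 genes in CD8 T cells of mice given marrow with scurfy or wild-type Foxp3. They were chosen by name: every gene whose symbol is Zfp followed by a number and at most 1 letter, except Zfp36, which encodes an mRNA-binding protein of another finger type. The annotation GENCODE M21 names 399 genes of this form, and the rest were not analysed here. A further 6 symbols that start with Zfp fall outside the rule: Zfp36 itself, Zfp36l1, Zfp36l2, Zfpl1, Zfpm1 and Zfp335os. Of the 261 genes, 259 are annotated as coding and the other 2 as transcribed unprocessed pseudogenes. The median translated coding sequence held 10 C2H2 fingers, a stretch in which 2 cysteines and 2 histidines hold a zinc ion, and 120 held a match to the KRAB box.

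A C2H2 finger usually reads a few bases of DNA, and an array of fingers in 1 protein can recognise a long and specific site. Members with a KRAB box recruit TRIM28 (KAP1), which brings the histone methyltransferase SETDB1, heterochromatin protein 1 and the NuRD deacetylase complex, and so silence retrotransposons and imprinted loci. Members without the box have other roles, among them transcriptional repression, RNA binding and ribosome maturation. In T cells, single members are known to act in lymphocyte survival and in signalling to NF-kappaB.

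The mice were bone marrow chimeras on the C57BL/6 J background, sampled 2 months after reconstitution. Each had been given marrow of CD45.2+ donors together with OT-1 marrow marked CD45.1+/2+ that was either Foxp3Scurfy, a loss-of-function allele of the regulatory T cell factor, or Foxp3wt. OT-1 is a transgenic T cell receptor that recognises the SIINFEKL peptide of ovalbumin, and all groups carried it. The comparison here is between 3 scurfy and 3 wild-type libraries of purified CD8 T cells left without peptide, out of 12 samples in 4 groups. The labels do not say whether the purified cells were sorted on CD45.1. Nor do they tie each library to a mouse of its own, and the spread that the p-values rest on may therefore be technical.

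The scurfy libraries held 10091477 to 10498525 reads and the wild-type libraries 8852518 to 23149523, so that 3 reads correspond to between 1.45 and 3.99 normalized counts. Foxp3 has no row, and the genotype labels were not checked against its transcript. The genotypes lay apart on the first principal component (35.8% of the variance), where scurfy library 3 (-43.5) was farthest from 0. All 12 CD8 T cell markers had a row, with a summed level of 91067 to 97270 normalized counts in scurfy libraries and of 86145 to 87583 in wild-type ones, and Cd3d and Cd2 were higher in scurfy. Of 10 B cell markers 7 had a row, and those with none include Cd79a and Ms4a1. Their sum was 9895 to 11352 in scurfy and 10971 to 11753 in wild-type libraries, nearly all of it Ighm (log2 fold change -0.08). All 7 log2 fold changes were below 0, and those of the class II genes were far larger. H2-Aa had 15.7, 0 and 4.73 normalized counts in scurfy libraries, against 57.2, 84.1 and 73.9 in wild-type libraries, and passed the test. H2-Ab1 averaged 1.61 ± 2.80 in scurfy and 20.5 ± 9.72 in wild-type libraries, and H2-Eb1 4.39 ± 2.96 in scurfy and 24.5 ± 11.4 in wild-type libraries, neither passing. Of 8 myeloid markers 2 had a row, with sums of 1463 to 1579 in scurfy and 850 to 1172 in wild-type libraries, and Cst3 was higher. Of 5 erythroid markers Car2 alone had a row, at 101 to 156 in scurfy and 232 to 315 in wild-type libraries, and it was lower. No natural killer or CD4 T cell marker of the lists had a row. The part that other cells took in the results on Zfp genes was not tested, and fewer cells of a type cannot be told apart from less RNA per cell.

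Few Zfp genes differed between the genotypes. Of the 261, 3 were higher in scurfy (Zfp69, Zfp141 and Zfp959), 4 were lower (Zfp189, Zfp943, Zfp280d and Zfp217) and 254 did not pass, where passing means an adjusted p under 0.05 in limma with Benjamini-Hochberg adjustment over all genes. That is 2.68% of the Zfp genes, against 4.47% of all genes, of which 2.12% were higher and 2.35% lower. The log2 fold change, scurfy minus wild type on log2(normalized count + 1), had a median of -0.08 over the 261 genes, with quartiles at -0.39 and 0.17, against a median of 0.01 over all genes. It was below 0 for 150 Zfp genes (57.5%), against 48.9% of all genes. At an unadjusted limma p under 0.05 there were 8 higher and 32 lower Zfp genes, or 3.07% and 12.3%, against 9.91% and 11.3% of all genes.

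**Figure D1:**
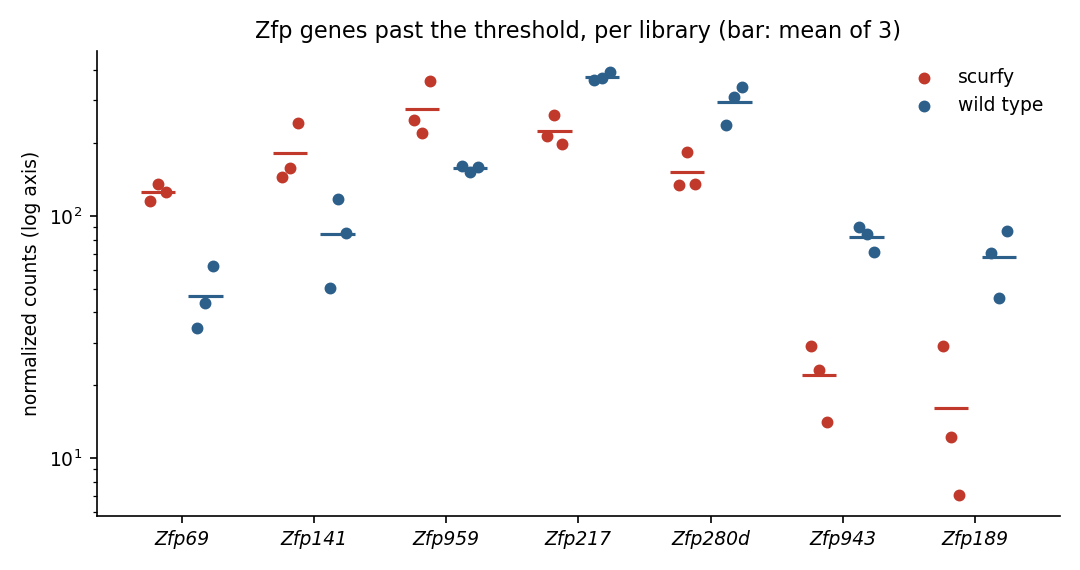
Normalized counts (vertical log axis) of the 7 Zfp genes past the threshold, with scurfy libraries in red left of wild-type libraries in blue, 1 point per library and a bar at the mean of 3. The groups do not overlap for any of the 7, and the widest gaps are those of Zfp943, at 14.2 to 29.1 in scurfy and 71.3 to 90.4 in wild type, and of Zfp69, at 115 to 135 in scurfy and 34.6 to 62.1 in wild type.

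The promoters of the 3 genes with the largest fold change among those past the threshold are shown, since all 3 encode KRAB zinc finger proteins that lay far apart between the genotypes. Each is the 250 bases before the gene's start from RefSeq, build GRCm38.p6, written along the gene's strand. Capitals mark matches, on either strand, to the searched motifs: GTAAACA (forkhead, the family of Foxp3), GGGCGG (Sp/Klf), CCGGAAG (Ets), ATGGCGG (Yy1), GCGCANG (part of the Nrf1 motif) and ACTACAN (part of the Zfp143 motif). The Zfp189 window is chr4:49520926-49521175, plus strand, that of Zfp943 is chr17:21962309-21962558, plus strand, and that of Zfp69 is chr4:120951702-120951951, minus strand.
Zfp189: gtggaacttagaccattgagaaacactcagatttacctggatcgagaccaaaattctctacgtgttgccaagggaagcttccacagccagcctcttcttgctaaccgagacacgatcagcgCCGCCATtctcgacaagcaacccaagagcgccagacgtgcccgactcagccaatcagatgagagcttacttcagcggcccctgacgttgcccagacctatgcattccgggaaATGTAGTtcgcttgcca
Zfp943: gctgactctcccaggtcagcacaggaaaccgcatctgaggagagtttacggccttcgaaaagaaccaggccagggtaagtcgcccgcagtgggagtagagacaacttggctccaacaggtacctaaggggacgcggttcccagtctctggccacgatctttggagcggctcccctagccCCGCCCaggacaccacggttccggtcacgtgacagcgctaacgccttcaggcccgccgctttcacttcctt
Zfp69: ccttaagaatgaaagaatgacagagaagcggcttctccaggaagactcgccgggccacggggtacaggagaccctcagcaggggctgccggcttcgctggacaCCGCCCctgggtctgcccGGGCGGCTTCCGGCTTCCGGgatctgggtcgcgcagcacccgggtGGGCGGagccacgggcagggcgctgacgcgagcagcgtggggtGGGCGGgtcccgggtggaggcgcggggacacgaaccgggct

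The capitals of Zfp189 are a Yy1 and a Zfp143 match, that of Zfp943 is an Sp/Klf match, and those of Zfp69 are 4 Sp/Klf matches and 2 Ets matches that adjoin the second of them. Over all Zfp genes with a window, 218 in number, the Zfp143 letters stood in 25.7% and the Ets letters in 18.8%, against 10.2% and 15.9% of the windows of 7916 genes. The Sp/Klf letters stood in 44.5% of Zfp windows and 61.1% of all windows, the Nrf1 letters in 17.9% and 27.5%, and the Yy1 letters in 4.13% and 4.35%. The forkhead letters stood in 1.38% of Zfp windows and 2.07% of all windows, and in none of the 7 genes past the threshold. A match is a description of the letters, not a binding site.

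Zfp943 (ENSMUSG00000053347, chromosome 17) encodes a KRAB protein with 11 fingers. It had 29.1, 23.2 and 14.2 normalized counts in scurfy libraries, against 90.4, 84.6 and 71.3 in wild-type libraries. Every scurfy library was below every wild-type library, and the log2 fold change was -1.89 (SE 0.37, limma adjusted p = 0.014), the smallest p among the Zfp genes. The call ended without wild-type library 2 (adjusted p = 0.0534). Exons of Gm9772 overlap those of Zfp943 on the opposite strand, and counting is not stated to have used strand. Reads within the overlap, whose size was not measured, therefore cannot be told apart.

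Zfp189 (ENSMUSG00000039634, chromosome 4), a KRAB protein gene with 16 fingers studied in the mouse brain for its part in the response to stress, had the largest fall. It had 29.1, 12.2 and 7.09 normalized counts in scurfy libraries, against 70.5, 45.9 and 86.4 in wild-type libraries. The groups did not overlap, the scurfy libraries spreading widely, and the log2 fold change was -2.17 (SE 0.50, limma adjusted p = 0.0259). The call ended without scurfy library 2 (adjusted p = 0.0674) or 3 (0.0661), and without wild-type library 1 (0.0741), 2 (0.0506) or 3 (0.11).

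The other 2 falls were of members without a KRAB match. Zfp217 (ENSMUSG00000052056, chromosome 2, 8 fingers) encodes a repressor that works with CtBP and whose human counterpart is amplified in breast cancer. It had 214, 261 and 199 normalized counts in scurfy libraries, against 366, 370 and 394 in wild-type libraries. The wild-type libraries lay close together and all above the scurfy ones, with a log2 fold change of -0.75 (SE 0.17, limma adjusted p = 0.0234). The call ended without scurfy library 1 (adjusted p = 0.0538) or 3 (0.0643), without wild-type library 1 (0.0529), 2 (0.0683) or 3 (0.0833), and with the length trend removed together with the replicate block (0.0833).

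Zfp280d (ENSMUSG00000038535, chromosome 9, 7 fingers) had 134, 184 and 136 normalized counts in scurfy libraries, against 237, 309 and 341 in wild-type libraries. The groups did not overlap, and the log2 fold change was -0.96 (SE 0.21, limma adjusted p = 0.0213). The call ended without scurfy library 1 (adjusted p = 0.0517) or 3 (0.0561), without wild-type library 2 (0.0768) or 3 (0.089), and with the trend of fold change on transcript length (0.0599) or GC content (0.0519) removed. BC065403 overlaps its exons on the opposite strand, which leaves the same uncertainty as for Zfp943.

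All 3 rises were of KRAB members. Zfp69 (ENSMUSG00000064141, chromosome 4, 9 fingers), a gene linked to fat storage and blood glucose in mouse crosses, had 115, 135 and 125 normalized counts in scurfy libraries, against 34.6, 44.0 and 62.1 in wild-type libraries. The lowest scurfy library stood well above the highest wild-type library, and the log2 fold change was 1.44 (SE 0.29, limma adjusted p = 0.0177). The call ended without scurfy library 2 (adjusted p = 0.0636) or wild-type library 2 (0.0506).

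Zfp959 (ENSMUSG00000003198, chromosome 17, 9 fingers) had 248, 221 and 359 normalized counts in scurfy libraries, against 161, 153 and 159 in wild-type libraries. Scurfy library 3 stood above the other scurfy libraries, and the log2 fold change was 0.77 (SE 0.21, limma adjusted p = 0.0487). Zfp141 (ENSMUSG00000092416, chromosome 7, 10 fingers) had 145, 157 and 242 normalized counts in scurfy libraries, against 50.5, 117 and 84.8 in wild-type libraries. Again scurfy library 3 was the highest, and the log2 fold change was 1.14 (SE 0.31, limma adjusted p = 0.0499).

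Both of these calls sat at the threshold. That of Zfp959 ended without scurfy library 1 (adjusted p = 0.0739), 2 (0.0591) or 3 (0.161), without wild-type library 1 (0.0902), 2 (0.125) or 3 (0.111), with library size only (0.0723) and with the length trend removed (0.0743, or 0.111 with the replicate block). That of Zfp141 ended without scurfy library 1 (adjusted p = 0.0588), 2 (0.0965) or 3 (0.16), without wild-type library 1 (0.133) or 3 (0.106), in edgeR's quasi-likelihood test (0.0574) and voom (0.0767) on recovered reads, with a pseudocount of 0.5 (0.0514), with library size only (0.0558) and with the length trend removed (0.0577, or 0.0624 with the replicate block). Zfp genes arose by duplication, and 21.3% of the 50-base windows in the transcripts of Zfp959, 11.9% of those of Zfp141 and 11.5% of those of Zfp280d also occur in another gene. For Zfp943 it was 3.97%, and for Zfp69, Zfp189 and Zfp217 none. The treatment of such reads in counting is not given in the sources, which makes the values of genes with shared windows uncertain. The shares count windows over the whole transcript, and the share of reads affected was not measured. Across 259 Zfp genes with a sequence the median share was 0.715%, with 61 genes over 10% and 94 at 0.

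Just outside the threshold stood Zfp362, a gene without a KRAB match, at 366.9, 333 and 384 normalized counts in scurfy libraries, against 489, 514 and 535 in wild-type libraries. The groups did not overlap, and the log2 fold change was -0.51 (limma adjusted p = 0.0545). It passed in limma with library size only (adjusted p = 0.0175), a mean of at least 50 (0.0443) or the GC trend removed (0.034), and in DESeq2 (0.0204). In the authors' deposited table there were 3 Zfp genes higher and 9 lower in scurfy among the 214 with an adjusted p, and 8.90% of all genes with one passed. Its calls hold all 7 genes that passed in limma and, as chosen after their values were seen, Zfp362, Zfp677, Zfp422, Zfp317 and Zfp386, whose adjusted p in the authors' deposited table was 0.0204, 0.0215, 0.0317, 0.0344 and 0.0457.

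On the recovered reads, DESeq2 called 3 Zfp genes higher and 9 lower, against 4.15% and 4.76% of the genes it gave an adjusted p. It called 891 genes in all, as did the authors' deposited table. For the 7 Zfp genes past the threshold in limma its adjusted p was nearly the same as theirs. The DESeq2 counts are therefore not a result separate from that table. On the same reads edgeR called 2 higher and 4 lower, against 2.15% and 2.69% of all genes, and voom 2 higher and 4 lower, against 2.30% and 2.47%. With scaling by library size only, limma called 1 Zfp gene higher and 16 lower, against 1.55% and 7.08% of all genes.

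**Figure D2:**
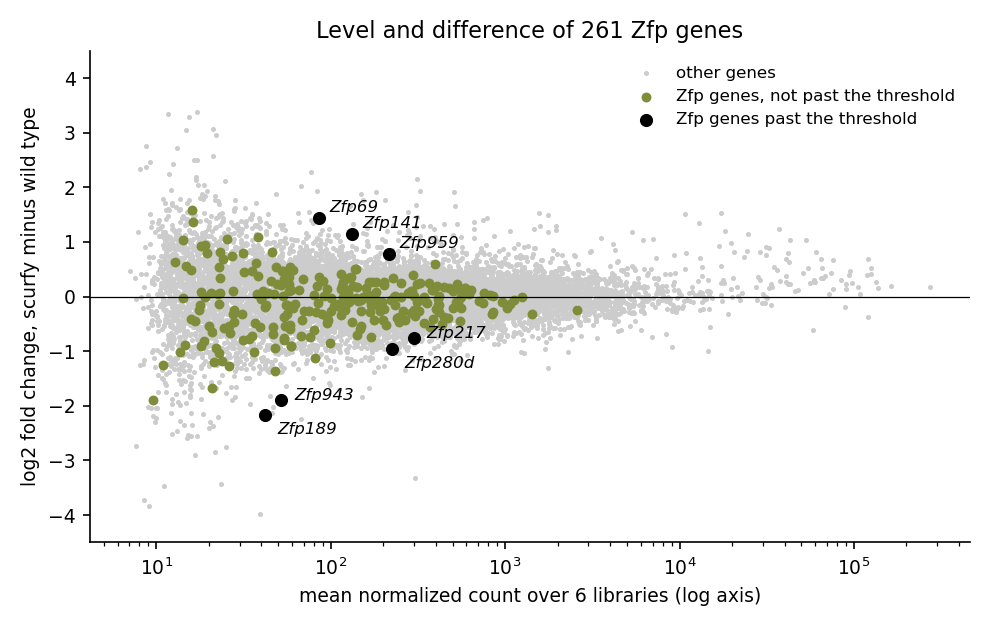
Log2 fold change, scurfy minus wild type (vertical axis), against the mean normalized count over 6 libraries (horizontal log axis), with the 7 Zfp genes past the threshold in black and named, the other 254 in green and all other genes in grey. The Zfp genes spread within the cloud of all genes, from -2.17 (Zfp189) to 1.58 (Zfp112), and none reached a fold change over 2 with a mean of 200 or more.

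The spread of the Zfp genes depended on their level, as it did for all genes. A fold change over 2 was measured for 20 Zfp genes (7.66%), against 5.11% of all genes, and 16 of the 20 had a mean under 50 normalized counts. The extremes outside the named calls were low genes: Zfp112 had a log2 fold change of 1.58 at a mean of 16.0 normalized counts (limma adjusted p = 0.245) and Zfp418 one of -1.89 at 9.55 (0.259). Among the 81 Zfp genes with a mean of 200 or more, the median log2 fold change was -0.08, the lowest -0.96 and the highest 0.77. These 81 genes had 3 calls (3.70%), against 6.73% of all genes at such levels. At a mean of 50 to 200, 2.91% of 103 Zfp genes passed, against 2.58% of all genes there. Under a mean of 50, 1.30% of 77 Zfp genes passed, against 0.627% of all genes there. The median level was 111 normalized counts for Zfp genes and 247 for all genes.

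The groups did not overlap for 58 Zfp genes, against 27.1% of all genes, which gives no test by itself. All scurfy libraries were above all wild-type libraries for 17 Zfp genes (6.51%), against 13.4% of all genes, and below them for 41 (15.7%), against 13.7% of all genes. These shares varied with length over all genes. Over 4000 bases of exonic length, 4.09% of 171 Zfp genes were above, against 8.93% of all genes so long. Of the same 171, 15.8% were below, against 17.9% of all genes so long. Summed over the 261 genes, the level was 52492, 51440 and 50083 normalized counts in scurfy libraries, against 54761, 54746 and 54656 in wild-type libraries. As a share of all normalized counts this was 0.43%, 0.414% and 0.404% in scurfy, against 0.465%, 0.489% and 0.507% in wild type. Both measures were lower in every scurfy library, and with 3 libraries a group the smallest p an exact two-sided permutation test allows is 0.1.

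**Figure D3:**
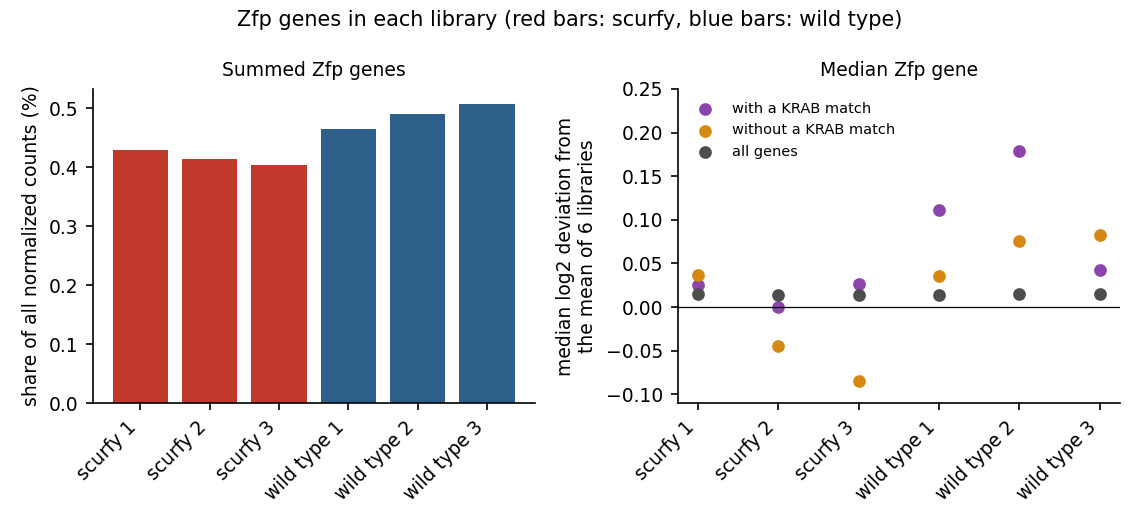
Left, the summed Zfp genes as a share of all normalized counts (percent) in each library, scurfy in red and wild type in blue. Right, the median log2 deviation of a gene from its mean over the 6 libraries, for Zfp genes with a KRAB match (purple), without one (orange) and all genes (dark grey). The scurfy bars lie between 0.404% and 0.43% and the wild-type bars between 0.465% and 0.507%, and the dark grey points stay at 0.01 to 0.02 in every library.

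Members with and without a KRAB match were set side by side. Of the 120 with a match, 3 were higher, 2 lower and 115 did not pass (4.17%), the median log2 fold change was -0.11, and 72 values were below 0. Of the 139 without, none was higher, 2 were lower and 137 did not pass (1.44%), with a median of -0.04 and 77 values below 0. Over all genes 4.47% passed, close to the share of the KRAB members. The difference between the classes was not tested. They follow the pattern match alone, and Zfp445, a known KRAB gene without a match, is among the 139. KRAB members were at lower levels, with a median of 58.0 normalized counts against 172 for the others. Per kb of exonic length the medians were 14.9 and 29.0. Transcripts of the KRAB members were poorer in G and C, at a median of 41.9% against 50.2%. Another 28 genes of other names whose coding sequence holds both a KRAB match and fingers had no call and a median log2 fold change of -0.06.

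**Figure D4:**
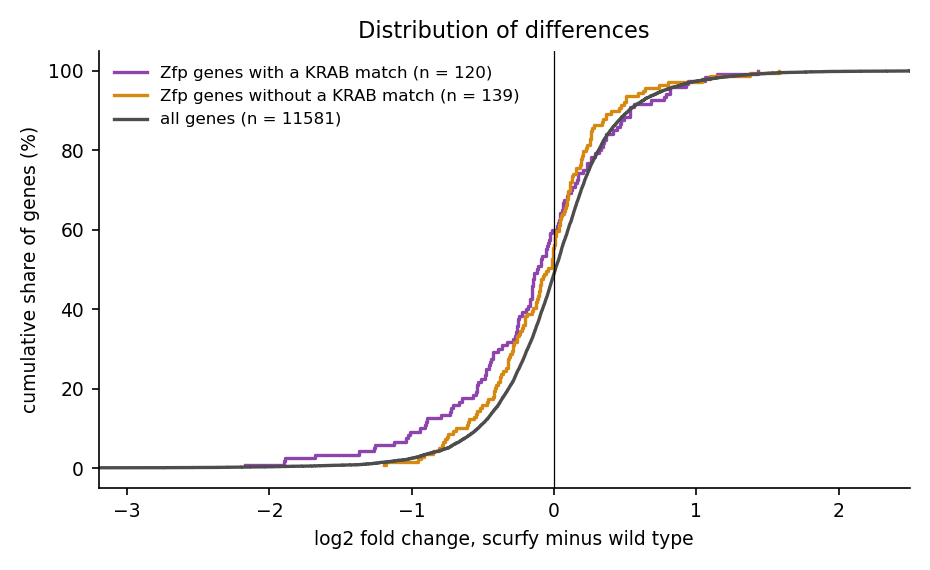
Cumulative share of genes (vertical axis, percent) at or below each log2 fold change, scurfy minus wild type (horizontal axis, cropped at the ends), for Zfp genes with a KRAB match (purple, n = 120), without one (orange, n = 139) and all genes (dark grey, n = 11581). At 0 the curves stand at 60.0%, 55.4% and 48.9%, and their lower quartiles lie at -0.46, -0.33 and -0.25.

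The number of fingers did not order the differences. The median log2 fold change was -0.09 for the 37 genes with 0 to 4 fingers, -0.08 for the 84 with 5 to 9, -0.11 for the 85 with 10 to 14 and 0.01 for the 53 with 15 or more. Across 259 Zfp genes the Spearman correlation between fingers and log2 fold change was 0.02, a description over genes that share the same 6 libraries. Between GC content and log2 fold change the Spearman correlation was 0.22 across Zfp genes and 0.23 across all genes. Below 45% GC the median was -0.19 over 122 Zfp genes, against -0.16 over 2188 genes of all kinds. From 45 to 50% GC it was -0.02, against -0.06 over all genes. At 50% and above it was 0.01 over 87 Zfp genes, against 0.06 over 5205 genes. With the GC trend of all genes removed, an alternative chosen after seeing the data, the median was -0.02 over the 259 Zfp genes with a GC value. Between exonic length and log2 fold change the Spearman correlation was -0.05 across Zfp genes and -0.25 across all genes. Over 4000 bases the median was -0.11 over 171 Zfp genes, against -0.05 over 5881 genes. From 2000 to 4000 bases it was 0.001 over 83 Zfp genes, against 0.02 over 3293 genes. With the length trend removed, the median over the 261 Zfp genes was -0.045.

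The Zfp genes with the most reads are not KRAB genes, and none passed. Zfp706, which encodes a small protein known from mouse embryonic stem cells, averaged 2381 ± 148 normalized counts in scurfy libraries and 2808 ± 97.2 in wild-type libraries (SD, n = 3 each). All scurfy libraries were lower, with a log2 fold change of -0.24 (limma adjusted p = 0.183), and 40.6% of the windows in the last 500 bases of its transcript occur in another gene. Zfp207, which encodes the spindle and BUB3-binding protein BuGZ, averaged 1266 ± 146 in scurfy and 1581 ± 115 in wild-type libraries, again without overlap (log2 fold change -0.32, limma adjusted p = 0.124). Zfp622, the counterpart of a yeast factor of large ribosomal subunit maturation, averaged 1242 ± 164 in scurfy and 1249 ± 96.0 in wild-type libraries (-0.01). Zfp592, which binds chromatin in a complex with Zfp687, averaged 1108 ± 83.0 in scurfy and 1155 ± 119 in wild-type libraries (-0.06). Zfp91, which acts in noncanonical NF-kappaB signalling, averaged 1023 ± 26.7 in scurfy and 1119 ± 74.0 in wild-type libraries (-0.13).

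By known role, the genes for RNA binding and ribosome maturation had 8 of 10 listed members measured and none passed, with a median log2 fold change of -0.13. In this list Zfp207 had the smallest p. Of 5 genes with lymphocyte or immune roles 4 were measured and none passed. Zfp318, which controls the choice between IgM and IgD in B cells, had the smallest p, with a mean of 368 ± 24.6 in scurfy libraries and 432 ± 53.8 in wild-type libraries (log2 fold change -0.23, limma adjusted p = 0.418), beside the B cell markers below 0 given above. Zfp335, which is needed for the survival of naive T cells in mice, averaged 274 ± 47.8 in scurfy and 228 ± 21.9 in wild-type libraries (0.25, limma adjusted p = 0.462).

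Of 18 transcription and chromatin regulators without KRAB 16 were measured. Zfp217 fell and 15 did not pass (6.25% called, against 4.47% of all genes). Of the 16 log2 fold changes 14 were below 0, with a median of -0.27, against the median of 0.01 over all genes. Among them Zfp131 averaged 329 ± 30.1 in scurfy and 440 ± 60.4 in wild-type libraries (-0.41, limma adjusted p = 0.149), and Zfp281, a repressor of pluripotency genes in mouse stem cells, 259 ± 49.4 in scurfy and 316 ± 30.7 in wild-type libraries (-0.30, limma adjusted p = 0.365). Of 10 KRAB genes with a known target or partner 8 were measured and none passed. Zfp445, which maintains imprints in mice, had the smallest p, at 407 ± 32.4 in scurfy and 534 ± 38.8 in wild-type libraries (-0.39, limma adjusted p = 0.121). Its coding sequence matched no KRAB pattern, so it is counted above among the genes without a match. Zfp809, which silences murine leukaemia provirus, averaged 119 ± 23.9 in scurfy and 110 ± 32.1 in wild-type libraries (0.14). Zfp568, which represses a placental transcript of Igf2, averaged 68.8 ± 15.5 in scurfy and 47.8 ± 13.4 in wild-type libraries (0.53, limma adjusted p = 0.387).

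Among genes for the proteins through which KRAB members act, 1 passed. Of 11 listed genes of the TRIM28, SETDB1 and HP1 group 10 were measured. Atf7ip, which protects SETDB1 from degradation, fell, and 9 did not pass (10.0% called, against 4.47% of all genes). With so few genes, 1 call gives no result about the group. Atf7ip averaged 762 ± 78.8 normalized counts in scurfy libraries and 1086 ± 35.6 in wild-type libraries (log2 fold change -0.52, limma adjusted p = 0.0271). Its call ended without scurfy library 2 (adjusted p = 0.0959) or 3 (0.0661), without wild-type library 1 (0.0779), 2 (0.0767) or 3 (0.0721), and with the length trend removed (0.135). Trim28 averaged 2080 ± 142 in scurfy and 1823 ± 76.9 in wild-type libraries (0.19), and Setdb1 618 ± 55.3 in scurfy and 492 ± 24.9 in wild-type libraries (0.33), neither passing.

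None of 13 NuRD genes passed, the smallest p being that of Gatad2b, at 818 ± 69.4 in scurfy and 1102 ± 65.9 in wild-type libraries (-0.43, limma adjusted p = 0.052). Gatad2b did pass in edgeR (adjusted p = 0.0462), DESeq2 (0.0203) and voom (0.0469) on recovered reads, and in limma with library size only (0.0144), a pseudocount of 5 (0.0498) or a mean of at least 50 (0.0406). None of 4 HUSH complex genes passed, with Mphosph8, a reader of methylated H3K9, at -0.18. The same held for 5 genes of DNA methylation, with Uhrf2 at -0.38 (limma adjusted p = 0.157), and for 5 of H3K9 methylation, with Wiz at -0.36 (limma adjusted p = 0.311).

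Zfp genes lie in tandem clusters, and their order on the chromosomes was used to see whether neighbours moved together. Of the 261 genes 148 lay in 37 clusters in which starts follow each other within 200 kb. Of 111 adjacent pairs in them, 62 had log2 fold changes of the same sign. With 57.5% of all Zfp genes below 0, many pairs share a sign without moving together. The number expected from that alone was not computed, so the count does not show whether neighbours moved together. Chromosome 7 held 73 members, of which 35 were below 0 with a median of 0.01. Chromosome 13 held 26, with 14 below 0 and a median of -0.15. Chromosome 17 held 29, with 21 below 0 and a median of -0.29.

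**Figure D5:**
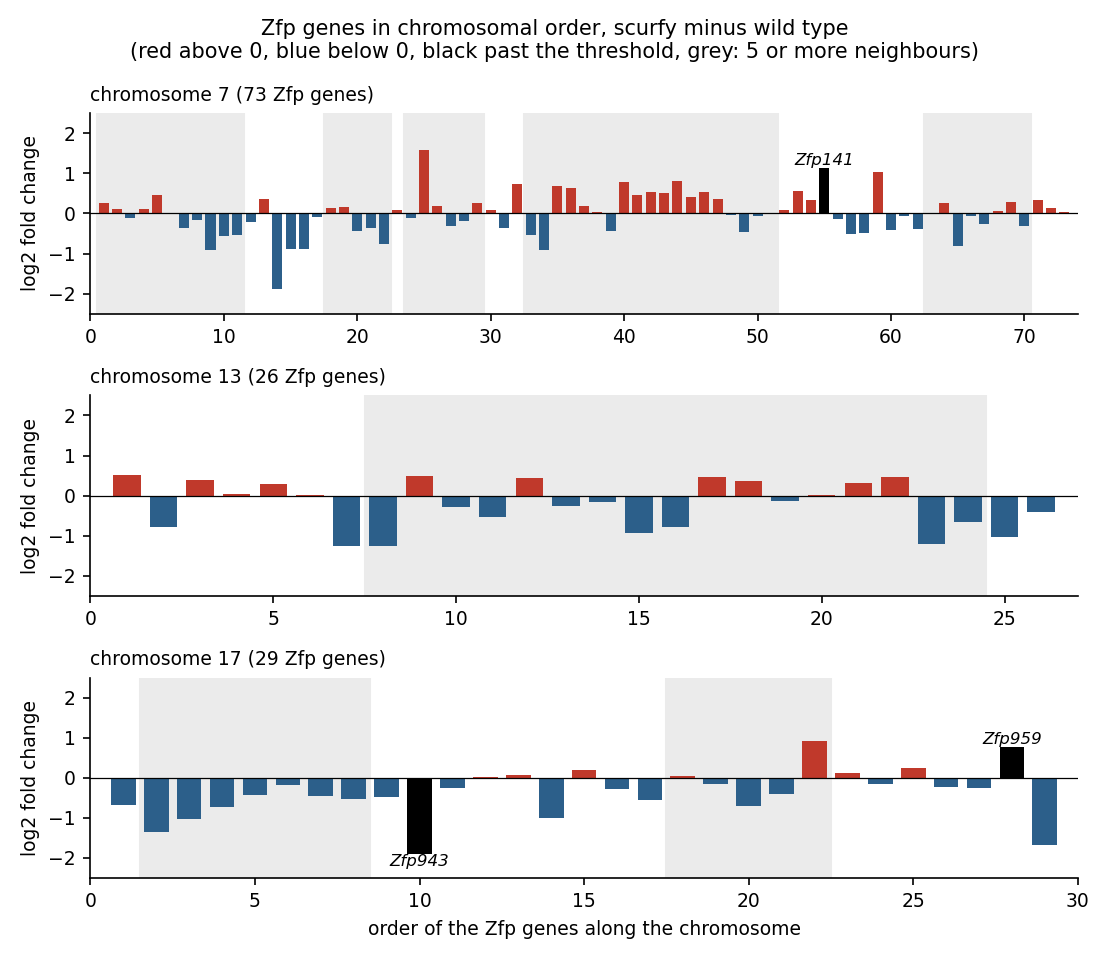
Log2 fold change, scurfy minus wild type (vertical axis), of the Zfp genes of chromosomes 7, 13 and 17 in chromosomal order (horizontal axis, rank along the chromosome). Bars are red above 0, blue below 0 and black past the threshold, and grey bands mark clusters of 5 or more. The 7 bars of the first band on chromosome 17 all point down, with a median of -0.54, and 9 of the 13 bars from Zfp84 to Zfp146 in the widest band of chromosome 7 point up or lie at 0.

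The cluster of chromosome 17 from Zfp677 to Zfp760 held 7 KRAB genes (Zfp677, Zfp54, Zfp51, Zfp53, Zfp52, Zfp948 and Zfp760), all with log2 fold changes below 0, a median of -0.54 and no call. It was picked out after its values were seen. Zfp53, its member with the most reads, had 245, 248 and 195 normalized counts in scurfy libraries, against 306, 318 and 297 in wild-type libraries. Those groups did not overlap, and the log2 fold change was -0.43 (limma adjusted p = 0.163). Zfp677 had 29.1, 17.1 and 31.9 in scurfy libraries, against 97.0, 72.0 and 42.0 in wild-type libraries, again without overlap (-1.37, limma adjusted p = 0.0685). For 4 of the 7 genes the groups overlapped, and the GC content of the transcripts was between 38.1% and 40.7%, in the class whose median was below 0 over all genes.

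Of 18 clusters with 3 or more members, 4 had all values on one side of 0. Besides the one above these were Zfp787 to Zfp28 on chromosome 7 (5 of 5 below 0, median -0.53), Zfp709 to Zfp961 on chromosome 8 (4 of 4 below 0, median -0.41) and Zfp653 to Zfp810 on chromosome 9 (3 of 3 above 0, median 0.19), all without a call. The number of such clusters expected without shared movement was not computed. The 17 genes of chromosome 13 from Zfp458 to Zfp273 had 10 values below 0, a median of -0.15 and no call, and the 13 of chromosome 7 from Zfp84 to Zfp146 had 4 below 0, a median of 0.41 and no call. Zfp959 lies beside Zfp119a and Zfp119b on chromosome 17. Where Zfp959 rose, Zfp119b had 12.1, 12.2 and 4.73 normalized counts in scurfy libraries, against 45.2, 22.2 and 29.4 in wild-type libraries (-1.68, limma adjusted p = 0.1002), and Zfp119a had -0.25. Zfp943 lies beside Zfp942, which had 84.8, 57.4 and 94.6 in scurfy libraries, against 150.2, 108 and 78.9 in wild-type libraries. The groups of Zfp942 overlapped, with a log2 fold change of -0.49 (limma adjusted p = 0.374).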

How the data were processed

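Polyadenylated RNA was primed with indexed oligo-dT, amplified linearly, fragmented and sequenced on a NextSeq 500, per the labels' protocols. Per the submitters' processing notes, Trim Galore 0.4.4, STAR 2.6, featureCounts, edgeR and DESeq2 were named with build NCBIM37, and the sources do not give whether strand was used in counting. Both deposited tables hold the same values for the 6 unstimulated libraries, so the stimulated ones were not analysed here. Each deposited value is a signal: reads of a gene over the size factor of its library, judged from the values and from the columns named per the file headers. All nonzero values (100%) were whole multiples of 1 read within 0.01 read. In wild-type library 2 the lowest value is 2 reads, so its step was taken as that value divided by 2. The authors' own log2 fold change, its error, a test score, and raw and adjusted p-values stand beside them, per the file headers. The filter on low genes is not given in the sources, and the smallest mean is 7.10.

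The edgeR test was planned for raw counts. As the values are normalized, limma 3.58.1 in R 4.3.3 was used on log2(value + 1) with variance trend and robust moderation, adjusting by Benjamini-Hochberg over 11581 genes at 0.05. Residual degrees of freedom were 4 and prior ones 10.7. For low genes, log2 fold changes on this scale were larger or smaller in size than those of the authors' deposited table. Zfp112 had 1.58 against 1.17 there, and Zfp248 had 0.64 against 0.87. Zfp605 differed in sign, at 0.94 against -0.17. Alternatives used edgeR 4.0.16, DESeq2 1.42.0 and voom on recovered reads, scaling by library size, other pseudocounts (0.5 and 5), a mean of at least 50, no trend, a replicate block, removal of length and GC trends, and each library left out. The script was tested on simulated data. Between libraries of a group the variance was 6.86 to 32.4 times that of sampling, so no library was a copy of another.

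Named genes are all members past the threshold, the 5 with the highest mean, up to 3 past the threshold (or else the smallest p) from each list, and the smallest p not past the threshold. Others were chosen as examples after their values were seen. Members and lists were chosen with earlier results of these data known. Chromosomes, lengths, GC content and exon overlaps are from GENCODE M21 (GRCm38), which differs from the submitters' build. Fingers and KRAB boxes were to be read from RefSeq proteins and were counted in translated GENCODE coding sequences instead. The planned KRAB pattern matched 100 members. A wider pattern, written after sequences and values had been seen, matched 120 and is the one used, and some known KRAB genes match neither. Of the Zfp genes, 90 have an exon that overlaps another annotated gene, 71 of them on the opposite strand.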

Additional observations from a re-analysis of the deposited data

How the results depend on the processing

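The counts were 3 higher and 4 lower Zfp genes with a median log2 fold change of -0.08. The number higher was 1 with scaling by library size only, 1 with the length trend removed and 0 with no variance trend or robust moderation. The number lower was 9 in DESeq2, 16 with library size only and 0 with no variance trend or robust moderation. In that last fit no gene of the table passed in limma, while 2106 genes and 44 Zfp genes had an unadjusted p under 0.05. Leaving out 1 library gave 0 to 1 higher and 0 to 3 lower, with a median of -0.12 to -0.033. The median was -0.20 with library size only, which moved the median of all genes by -0.13, and -0.019 with the GC trend removed, an alternative chosen after seeing the data. The causes were not tested. Same-numbered libraries did not deviate together over all genes (correlations 0.0088, -0.04 and -0.069). With so few libraries this cannot settle whether the numbers pair them, since a small shared deviation would not be seen. The replicate block gave 2 higher and 4 lower with a median of -0.08, ending the call of Zfp959 (adjusted p = 0.0645), and with the length trend also removed 1 higher and 2 lower. On library size only the call of Zfp959 (adjusted p = 0.0723) and of Zfp141 (0.0558) ended. As that fit also gave the pseudocount more weight, its counts and median do not show the effect of scaling alone. Near 0, Zfp622 changed sign to 0.060 with the length trend removed, with or without the block, and ranged from -0.12 to 0.068 with 1 library left out, above 0 without scurfy library 1 or 2 or wild-type library 3. Zfp592 changed sign to 0.020 with the length trend removed, with or without the block, and ranged from -0.11 to 0.027 with 1 library left out, above 0 without scurfy or wild-type library 3. With the narrower KRAB pattern the 100 matching genes had 3 higher, 2 lower and a median of -0.13. Where the mean of a gene is near the level of 3 reads, a difference was not detectable at this depth.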

Other observations

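Families of other zinc finger genes were counted in the same fit. Of 33 Zbtb genes, whose fingers are joined to a BTB domain and which include regulators of lymphocyte development, 2 were lower, none was higher and 31 did not pass (6.06% called, against 4.47% of all genes), with a median log2 fold change of -0.21. Zbtb1, which is needed for lymphocyte development in mice, averaged 515 ± 7.75 normalized counts in scurfy libraries and 717 ± 48.0 in wild-type libraries (SD, n = 3 each; log2 fold change -0.48, limma adjusted p = 0.0461). Zbtb44 averaged 281 ± 19.4 in scurfy and 420 ± 33.6 in wild-type libraries (-0.58, limma adjusted p = 0.0468). At an unadjusted limma p under 0.05, 1 Zbtb gene was higher and 10 were lower (3.03% and 30.3%), against 9.91% and 11.3% of all genes. None of 16 Zkscan and Zscan genes passed in limma (1 higher and 1 lower at an unadjusted p under 0.05), and their median was 0.02. None of 9 Klf genes passed in limma (0 higher and 2 lower unadjusted), with a median of -0.14, and none of 16 Zc3h genes (0 higher and 2 lower unadjusted), with a median of -0.03.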
